A study of Rattus norvegicus with 6 samples.

Results

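The miR-125 family was followed in exosomes, the small vesicles that cells release, from the culture medium of rat mesenchymal stem cells (MSCs). The family members were the rows of the deposited table named exactly miR-125a-5p, miR-125a-3p, miR-125b-5p, miR-125b-2-3p or miR-351-5p, and all 5 were found among the 763 mature miRNAs listed. The other arms of their hairpins, miR-125b-1-3p and miR-351-3p, are described beside them. Small RNA was sequenced from 3 libraries of untreated MSCs and 3 of MSCs pretreated with 200 µM nicorandil for 24 h. Nicorandil, prescribed for angina, acts as a nitric oxide donor and an opener of potassium channels that are sensitive to ATP. Both groups carry the labels RBMSC for the cell line and WT for the genotype, and neither the age of the donor rats nor the passage is given in the sources used here. The design asks how the pretreatment changes the miRNA content of the vesicles.

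miRNAs are short RNAs cut from hairpin precursors, and either strand of the hairpin stem, the 5p or the 3p arm, can be loaded into an Argonaute protein. The seed, bases 2 to 8 of the mature strand, largely decides which messenger RNAs are repressed, so miRNAs with the same seed share many targets. The miR-125 family is the mammalian counterpart of lin-4 of the nematode, a regulator of developmental timing. miR-125a-5p is known for roles in macrophages and endothelium, miR-125b-5p for repression of apoptosis genes and for effects on blood and mesenchymal differentiation, and miR-351-5p is a rodent relative encoded on the X chromosome.

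The 5p sequences are shown because the 3 paralogues have the same seed and are told apart by their later bases. Capitals mark the seed. All 5 members and both other arms matched entries of the RefSeq table (rat build GRCr8).
miR-125a-5p: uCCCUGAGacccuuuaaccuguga
miR-125b-5p: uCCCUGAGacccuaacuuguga
miR-351-5p: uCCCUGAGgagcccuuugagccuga
Of 693 mature names in that table, these 3 alone carry the seed CCCUGAG. miR-125a-5p and miR-125b-5p are identical over the first 13 bases and at 21 of 24 columns of a global alignment. miR-351-5p is identical to each of them over the first 8 bases, and at 20 of 26 aligned columns to miR-125a-5p and 16 of 25 to miR-125b-5p. At 24, 22 and 25 bases the 3 mature strands are close in length, and 1 read stands for 1 mature strand, so levels were compared as reads with no length scaling. Whether the adapters join these ends equally well was not tested.

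The 3p arms do not share a seed with one another or with any other mature miRNA of the table.
miR-125a-3p: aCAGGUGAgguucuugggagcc
miR-125b-1-3p: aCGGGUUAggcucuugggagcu
miR-125b-2-3p: aCAAGUCAggcucuugggaccu
miR-351-3p: gGUCAAGAggcgccugggaac
The first bases therefore differ while the ends are alike: miR-125b-1-3p and miR-125b-2-3p are identical at 18 of 22 aligned columns but over only 2 bases from the 5′ end. Reads of the 3p arms thus name their hairpin, whereas miR-125b-5p reads do not.

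The hairpins of miR-125a, miR-125b-1 and miR-351 are shown to place both arms, in capitals, within each precursor.
Mir125a: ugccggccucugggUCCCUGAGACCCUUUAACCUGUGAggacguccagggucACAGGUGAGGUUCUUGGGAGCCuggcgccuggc
Mir125b1: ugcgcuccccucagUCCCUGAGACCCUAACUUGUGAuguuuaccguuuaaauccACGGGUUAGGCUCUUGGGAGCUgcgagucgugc
Mir351: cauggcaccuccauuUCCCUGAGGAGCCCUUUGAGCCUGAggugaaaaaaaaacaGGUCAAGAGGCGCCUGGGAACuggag
The hairpin of miR-125b-1 holds the same 5p strand that the table assigns to miR-125b-2, so miR-125b-5p reads can come from either locus. Mir125a lies at chr1:67350675-67350759 on the plus strand, within the protein-coding gene Spaca6. Its neighbours Mir99b and Mirlet7e end 541 and 353 bases before it. Mir125b1 lies at chr8:50850036-50850122 on the plus strand within the long non-coding RNA Lnc215 and the gene model Mir100hgl, 51.7 kb from Mir100 and 44.7 kb from Mirlet7a-2. Mir125b2 lies at chr11:29732572-29732659 on the plus strand within the non-coding LOC103693508, 45.1 kb from Mir99a and 44.4 kb from Mirlet7c1. miR-3588, annotated on the opposite strand of Mir125b2 over the bases of miR-125b-5p, had no read in any library. Mir351 lies at chrX:137725116-137725196 on the minus strand, 659 bases from Mir503 and 950 bases from Mir322. Exon and intron positions within the host genes are not given by the table.

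Depth set the precision. Untreated replicates 1 to 3 held 2224, 2212 and 2338 reads assigned to miRNAs, against 16628, 16324 and 8426 in nicorandil replicates 1 to 3, so depth and treatment cannot be told apart. A count of 0 allows up to 3 reads, a share of up to 0.136% in an untreated and 0.0356% in a nicorandil library. Untreated replicates 1 and 2 differed by less than the sampling noise of their reads (chi-square of 50.3 on 54 degrees of freedom, p = 0.617). Replicates 1 and 3 gave 64.7 on 55, for which no excess over that noise was shown (chi-square p = 0.174), while replicates 2 and 3 did differ (chi-square p = 0.0121). Since all 3 are this shallow they were kept as 3 replicates, and averaging the first pair as 1 replicate left the number of members called at 1. Nicorandil replicate 3 stood apart most, with a chi-square of 499 and 507 on 97 and 94 degrees of freedom against replicates 1 and 2. Those 2 also differed from each other by more than sampling noise (chi-square of 235 on 99, p = 5.15e-13). Changes that leaving replicate 3 out makes are given beside several of the results, and ranges over each library left out are given at the end. No label tells if replicates were separate cultures, so p-values reflect the variation among these 6 libraries, possibly of technical origin. The deposited values given to limma are adjusted to a common depth within each group, so their spread need not equal that of the reads. The amount of a miRNA per vesicle and the kinds of vesicle in the preparation cannot be told apart here.

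The labelled cell type was checked with 10 mesenchymal miRNAs, of which 8 had reads in untreated and 10 in nicorandil libraries. Together they took 26.9% to 27.6% of untreated and 25.8% to 30.6% of nicorandil reads. Most of that sum was miR-143-3p, at a mean deposited value of 1296 over the 6 libraries, against 142 for miR-21-5p, the next of the list. The summed shares of markers of other cells were lower in all nicorandil libraries. The 3 liver and gut markers took 1.44% to 2.61% of untreated and 0.463% to 0.617% of nicorandil reads, the 2 endothelial markers 0.181% to 0.36% and 0.0301% to 0.0356%, the 5 epithelial markers 0.181% to 0.385% and 0.0119% to 0.0301%, and the 7 blood cell markers 0.678% to 0.854% and 0.263% to 0.415%. Single blood cell markers did not all go this way. miR-486 was called lower (limma log2 fold change -1.20, adjusted p = 0.0238), while miR-451-5p at -0.27 and miR-142-5p at 0.36 did not pass. The endothelial miR-126a-5p and the blood cell miR-144-5p had no read. With all 17 of these markers left out of the total, the log2 ratio of the mean miR-125a-5p shares was 0.80, against 0.84 with them in. The markers are a small part of the total, so leaving them out could move this ratio only a little. Whether other cells contributed miR-125a-5p reads was not tested.

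Of the 5 members, 1 rose with nicorandil, miR-125a-5p, none fell and 4 did not pass (limma on log2(value + 1), Benjamini-Hochberg adjusted p under 0.05 over all 121 miRNAs tested). Over all miRNAs tested 14.0% were called higher, 7.44% lower and 21.5% in either direction, so 1 of 5 is close to the background. The median log2 fold change was 0.74 over the members and 0.23 over all miRNAs tested. All 5 members passed the filter on low values, a mean of at least 1 over the 6 libraries. Both members with more than 500 reads over all libraries were 5p strands, miR-125a-5p with 545 and miR-125b-5p with 539, while miR-351-5p had 40, miR-125a-3p 33 and miR-125b-2-3p 8.

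**Figure D1:**
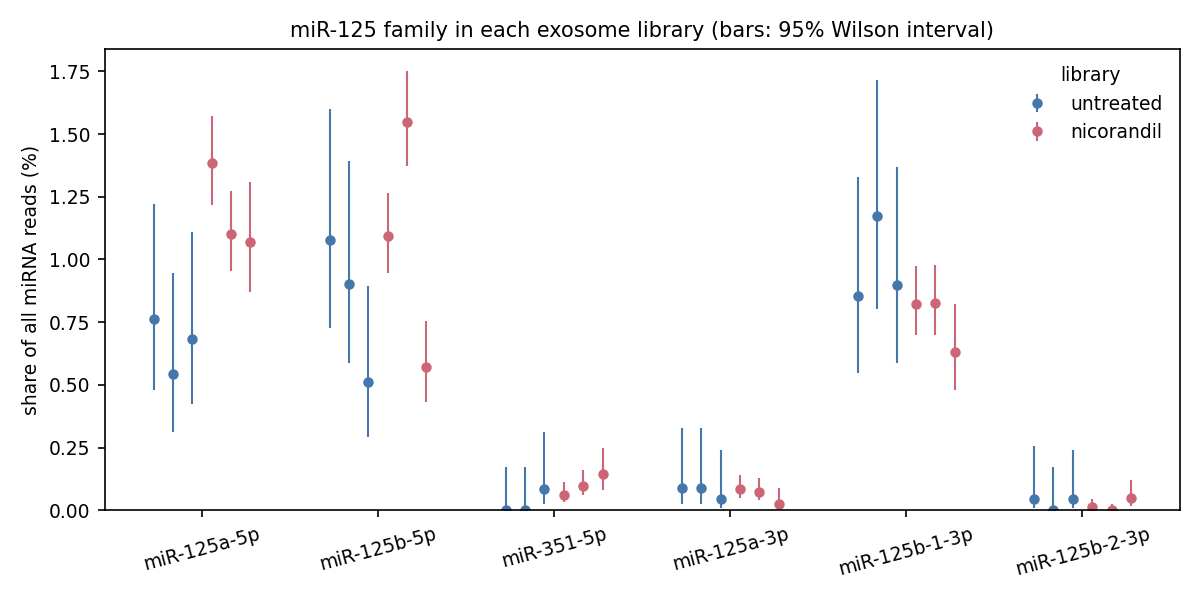
Share of all miRNA reads in percent (y axis) for 6 miRNAs of the miR-125 family (x axis) in each of 3 untreated (blue) and 3 nicorandil (red) libraries, with replicates 1 to 3 from left to right and bars for the 95% Wilson interval. The 3 nicorandil points of miR-125a-5p, 1.07% to 1.38%, lie above its 3 untreated points, 0.542% to 0.764%, while the groups overlap for the other miRNAs apart from miR-125b-1-3p.

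miR-125a-5p was at 32.5, 27.1 and 33.0 normalised reads in the untreated libraries, from 17, 12 and 16 reads. In the nicorandil libraries it was at 87.4, 70.7 and 69.1, from 230, 180 and 90 reads. All nicorandil values lay above all untreated ones, a separation that 28.1% of all miRNAs tested showed in one or the other direction and 17.4% in this one. The means were 30.9 ± 3.26 and 75.8 ± 10.1 (SD, n = 3), a log2 fold change of 1.27 (SE 0.20, limma adjusted p = 0.000309). It was the 29th miRNA by share of reads in the untreated and the 15th in the nicorandil exosomes, among 250 with a read. From the reads pooled over libraries its share was 1.82 times as high after nicorandil (exact conditional 95% interval 1.34 to 2.53, which covers counting error only). Among the 5p members, this is the one whose call held in all 16 other settings on the 6 libraries, with log2 fold changes of 0.82 to 1.29, and without each library in turn, at 1.16 to 1.33. The lowest came from library totals (limma adjusted p = 0.0191), a scale that moves the median of all tested miRNAs by -0.35. With TMM scaling of the reads in place of the deposited values, the log2 fold change was 1.27 (limma adjusted p = 0.00149).

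miR-125b-5p, which has the same seed, was at 45.0, 42.4 and 27.6 normalised reads without and 67.9, 104.1 and 35.8 with nicorandil. The groups overlapped: nicorandil replicate 2 was the highest of all 6 libraries, and nicorandil replicate 3 lay below untreated replicates 1 and 2. Its reads were 24, 20 and 12 untreated and 182, 253 and 48 after nicorandil. The log2 fold change of 0.74 (SE 0.30) did not pass (limma adjusted p = 0.102). The call depended on single libraries: without nicorandil replicate 3 the value was 1.15 (limma adjusted p = 0.00882) and without untreated replicate 1 it was 0.87 (0.0116), while without nicorandil replicate 2 it was 0.39 (0.569). Its reads made up 1.08%, 0.904% and 0.513% of the untreated and 1.09%, 1.55% and 0.57% of the nicorandil libraries.

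**Figure D2:**
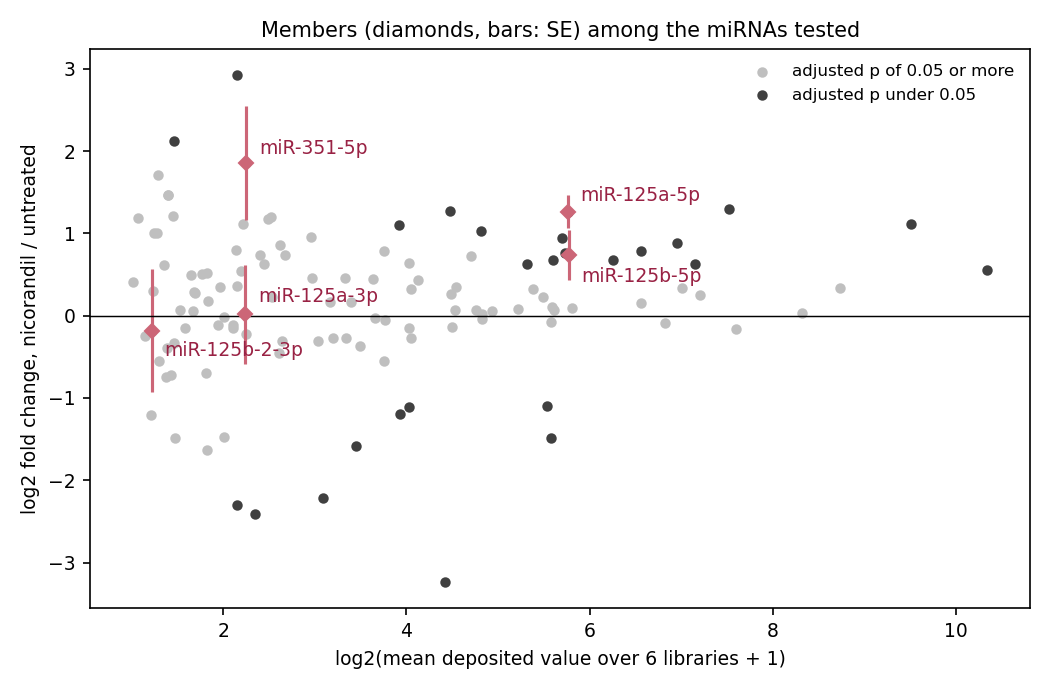
Log2 fold change of nicorandil over untreated (y axis) against the log2 of the mean deposited value plus 1 (x axis) for the 121 miRNAs tested, dark grey where the limma adjusted p was under 0.05, with the 5 family members as red diamonds and bars for the SE. miR-125a-5p at 1.27 and miR-125b-5p at 0.74 lie at nearly the same mean level, and the other 3 members lie far to the left, where the bars are wide.

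The paralogues were also compared within each library, where scaling between libraries cancels. The log2 ratio of miR-125a-5p to miR-125b-5p reads came to -0.50, -0.74 and 0.42 without and to 0.34, -0.49 and 0.91 with nicorandil. The values overlapped, and within each group the third replicate had the highest ratio. The mean went from -0.27 ± 0.61 to 0.25 ± 0.70 (SD, n = 3). This difference of 0.52 did not exceed the library-to-library spread (exact permutation p = 0.4, two-sided, adjusted 0.625 over 5 such comparisons, with 0.1 the smallest p that 3 against 3 libraries allow). The difference ran from 0.20 without nicorandil replicate 3 (exact permutation p = 0.7) to 0.90 without nicorandil replicate 2 (exact permutation p = 0.3), and was 0.29 without untreated replicate 2 and 0.87 without untreated replicate 3. The rise of miR-125a-5p was therefore not shown to differ from the change of miR-125b-5p. Of the reads of both paralogues, miR-125a-5p made up 41.5%, 37.5% and 57.1% in untreated and 55.8%, 41.6% and 65.2% in nicorandil libraries. The 95% Wilson intervals of nicorandil replicates 2 and 3, 37.0% to 46.3% and 57.0% to 72.7%, did not meet, so the split differed within the group by more than counting error.

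miR-351-5p, the X-linked member with the shared seed, had 0, 0 and 2 reads without and 10, 16 and 12 with nicorandil. In normalised reads it was at 0.188, 0.215 and 3.34 untreated and 2.77, 6.44 and 9.64 after nicorandil, so nicorandil replicate 1 lay below untreated replicate 3. The log2 fold change of 1.86 (SE 0.70) did not pass (limma adjusted p = 0.0734). Its size depended on the constant added to the values. With 0.1 or 10 in place of 1 it was 3.06 or 0.52 (limma adjusted p = 0.0900 and 0.0862). Untreated replicate 3 holds all the untreated reads. Without it the untreated group is at 0 reads, so the fold change of that fit rests on the constant added to the values. The ratio of the pooled shares was 3.11 with a counting interval of 0.804 to 26.6. It took 0%, 0% and 6.67% of the reads of the 3 seed family members in untreated and 2.37%, 3.56% and 8.0% in nicorandil libraries (two-sided exact permutation p = 0.5, adjusted 0.625). The difference of 2.42 percentage points was 0.744 without nicorandil replicate 3, 1.31 without untreated replicate 1 or 2, 4.64 without untreated replicate 3 and 3.56 without nicorandil replicate 1. A count of 0 among 41 and 32 seed family reads has Wilson upper bounds of 8.57% and 10.7%, which cover all 3 nicorandil values.

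The passenger arm of miR-125a was scarce in every library. miR-125a-3p had 2, 2 and 1 reads without and 14, 12 and 2 with nicorandil, at 3.81, 4.14 and 2.53 and at 5.71, 4.94 and 1.26 normalised reads. Its log2 fold change was 0.016 (SE 0.60, limma adjusted p = 0.979) and it turned to -0.12 and -0.29 with median-of-ratios and library-total scaling. Without nicorandil replicate 3 the log2 fold change was 0.51 (limma adjusted p = 0.719). The 5p arm therefore held most reads of the hairpin: 89.5%, 85.7% and 94.1% in untreated and 94.3%, 93.8% and 97.8% in nicorandil exosomes. The means were 89.8% ± 4.21 and 95.3% ± 2.22 (SD, n = 3) and the groups overlapped by 1 pair of libraries, untreated replicate 3 above nicorandil replicate 2 (two-sided exact permutation p = 0.2, adjusted 0.5). Computed from the deposited values in place of reads, the shares were 89.5%, 86.7% and 92.9% against 93.9%, 93.5% and 98.2%, which did not overlap. The difference was 5.47 percentage points (two-sided permutation p = 0.1, the smallest possible). The deposited values were adjusted within each group, so permuting their labels is not an exact test, and no conclusion is drawn from it. From reads the difference was 5.51 percentage points. It was 3.48 without untreated replicate 2 and 4.24 without nicorandil replicate 3. With 14 to 19 reads of the hairpin in an untreated library, the Wilson interval of untreated replicate 2 ran from 60.1% to 96.0% and included all nicorandil values but that of replicate 3.

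miR-125b had another arm pattern, with many reads on the 3p strand of its first hairpin. miR-125b-1-3p had 19, 26 and 21 reads without and 137, 135 and 53 with nicorandil. At 45.5 ± 8.20 and 48.8 ± 7.32 normalised reads (SD, n = 3) it had a log2 fold change of 0.10 (SE 0.21, limma adjusted p = 0.86), which turned to -0.13 with median-of-ratios scaling and to -0.35 with library totals. Its reads made up 0.854%, 1.18% and 0.898% of the untreated and 0.824%, 0.827% and 0.629% of the nicorandil libraries. These shares were lower in every nicorandil library, as were those of 21.5% of all miRNAs tested. miR-125b-2-3p, from the other hairpin, had 1, 0 and 1 reads and 2, 0 and 4 reads in the same libraries. Its ratio of pooled shares was 0.491 with a counting interval of 0.0878 to 4.98, and its log2 fold change of -0.18 (SE 0.75) did not pass (limma adjusted p = 0.897). Without nicorandil replicate 3, miR-125b-2-3p was not tested.

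Reads of the 3p strands, which name their hairpin, came almost all from miR-125b-1. This strand took 66 of 68 miR-125b 3p reads in untreated (97.1%, 95% Wilson interval 89.9% to 99.2%) and 325 of 331 in nicorandil exosomes (98.2%, 96.1% to 99.2%). The lowest share was in nicorandil replicate 3, at 93.0%. The neighbouring miR-99 and miR-100 strands were split the other way. miR-99a-5p, encoded near miR-125b-2, had 126 untreated and 1033 nicorandil reads, against 26 and 245 for miR-100-5p, encoded near miR-125b-1, so miR-99a-5p took 82.9% and 80.8% of the reads of the pair. How many miR-125b-5p reads came from each hairpin was not tested.

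Taking both 3p strands together, the 5p strand held 54.5%, 43.5% and 35.3% of the miR-125b reads in untreated and 56.7%, 65.2% and 45.7% in nicorandil libraries. The means were 44.4% ± 9.66 and 55.9% ± 9.77 (SD, n = 3), and nicorandil replicate 3 lay below untreated replicate 1. The difference of 11.4 percentage points did not pass (two-sided exact permutation p = 0.2, adjusted 0.5). It was 16.5 without nicorandil replicate 3, and 6.77 and 6.86 without nicorandil replicate 2 and untreated replicate 3. With miR-125b-2-3p as the one 3p strand the 5p share was 96.1% ± 3.85 and 97.1% ± 4.16 (SD, n = 3, two-sided exact permutation p = 1.0). In every library the 5p share of miR-125b lay below that of miR-125a, by the widest margin in untreated replicate 3, at 35.3% against 94.1%.

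**Figure D3:**
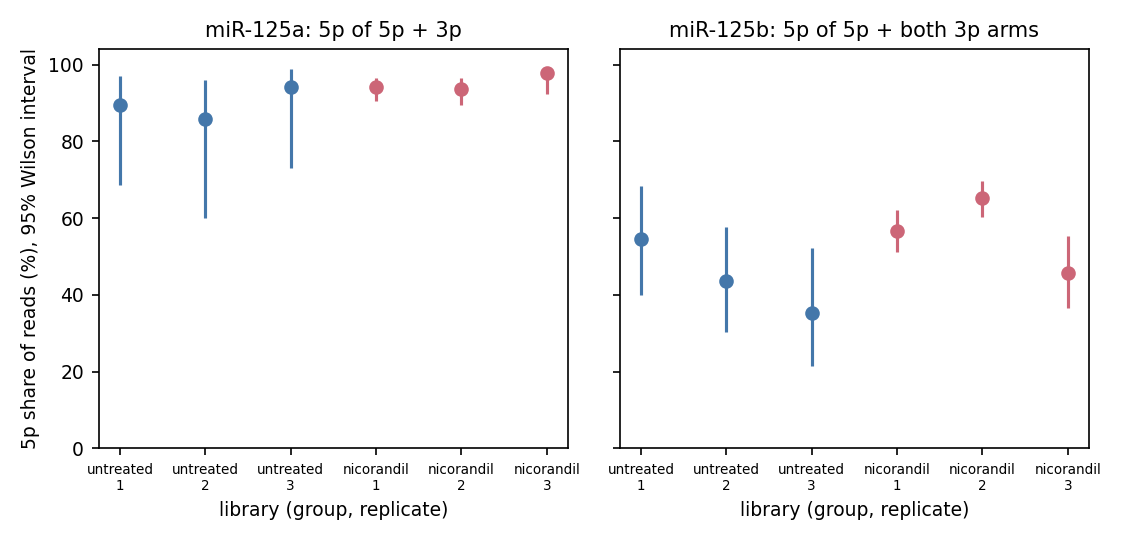
Share of the reads of a precursor that came from the 5p arm in percent (y axis), in each library (x axis; blue untreated, red nicorandil), with 95% Wilson intervals, for miR-125a on the left and for miR-125b, counted with both of its 3p arms, on the right. All 6 points of miR-125a lie at 85.7% or more and all 6 of miR-125b at 65.2% or less, and the blue and red ranges overlap in both panels.

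The arms of miR-351 could be compared in nicorandil libraries alone, since 2 untreated libraries had no read of either and the third had 2, both 5p. miR-351-3p had 2, 0 and 12 reads in nicorandil replicates 1, 2 and 3 against 10, 16 and 12 for miR-351-5p. The 5p share was thus 83.3%, 100% and 50.0% (95% Wilson intervals 55.2% to 95.3%, 80.6% to 100% and 31.4% to 68.6%). Replicate 3 supplied 12 of the 14 miR-351-3p reads, and without it the 5p strand held 26 of 28 reads. miR-351-3p had no untreated read, and no fold is given for it.

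Ordered by mean share, the untreated exosomes held miR-125b-1-3p (0.976% ± 0.17), miR-125b-5p (0.832% ± 0.29) and miR-125a-5p (0.664% ± 0.11), which overlapped as neighbours in the order, then miR-125a-3p (0.0744% ± 0.027), miR-125b-2-3p (0.0292% ± 0.025) and miR-351-5p (0.0285% ± 0.049; SD, n = 3). The gap between miR-125a-5p and miR-125a-3p exceeded the spread of both, and the last 3 overlapped. In nicorandil exosomes the order was miR-125a-5p (1.18% ± 0.17), miR-125b-5p (1.07% ± 0.49) and miR-125b-1-3p (0.76% ± 0.11), then miR-351-5p (0.10% ± 0.041), miR-125a-3p (0.0605% ± 0.032), miR-351-3p (0.0515% ± 0.079) and miR-125b-2-3p (0.0198% ± 0.025). miR-125a-5p and miR-125b-5p overlapped there, as did miR-125b-5p and miR-125b-1-3p, and all neighbours among the last 4. The 5 members together took 1.98%, 1.54% and 1.37% of untreated and 2.63%, 2.82% and 1.85% of nicorandil reads, with nicorandil replicate 3 below untreated replicate 1.

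The miRNAs encoded beside the members were read from the same fit. Of 21 strands listed as neighbours in the 4 clusters, 5 had no read, 6 had reads but fell below the filter and 10 were tested. Of these 3 rose, none fell and 7 did not pass, against 14.0% higher and 7.44% lower over all miRNAs tested. The median log2 fold change was 0.26 over the 10, 0.23 over the 9 of them with an untreated read and 0.23 over all tested. The tenth, let-7c-2-3p, is the 3p strand of the let-7c hairpin outside these clusters. It had no untreated and 14 nicorandil reads, 10 of them in replicate 3, and no fold is given for it. let-7a-1-3p had the same mean value, 1.63, and the same adjusted p in that fit (limma, 0.264). From which hairpin these reads came was not tested. The risers were miR-99b-5p, miR-99a-5p and miR-100-5p, which share a seed family of their own, known for repression of the kinase mTOR.

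In the cluster of miR-125a, miR-99b-5p was at 34.7, 34.7 and 33.7 normalised reads in untreated and 76.7, 55.7 and 71.0 in nicorandil libraries. The groups did not overlap (limma log2 fold change 0.95 with an SE of 0.20, adjusted p = 0.00284). The reads of the neighbours kept a near-even split, with miR-125a-5p at 48.6%, 42.9% and 50.0% of the pair in untreated and 53.2%, 55.6% and 49.5% in nicorandil libraries. let-7e-5p, the third 5p strand of this cluster and a member of the let-7 family of differentiation-linked miRNAs, had 0, 2 and 1 untreated and 7, 4 and 4 nicorandil reads (limma log2 fold change 0.28 with an SE of 0.69, adjusted p = 0.86). miR-99b-3p had 5 untreated and 18 nicorandil reads and a log2 fold change of -0.018 (SE 0.68), which was 0.0078 with upper-quartile and 0.11 with TMM scaling. So 2 of the 3 5p strands of the cluster rose, and the let-7 strand between them had 18 reads in all.

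Near miR-125b-1, miR-100-5p was at 22.0, 19.2 and 12.2 normalised reads in untreated and 43.9, 36.3 and 29.6 in nicorandil libraries (limma log2 fold change 1.02 with an SE of 0.28, adjusted p = 0.0149). It lost its call without untreated replicate 3 (limma adjusted p = 0.0582), without nicorandil replicate 1 (0.0938) and without nicorandil replicate 2 (0.0928). let-7a-5p, which the table also places at Mirlet7a1, had 32.6, 32.5 and 58.6 and then 53.8, 40.7 and 46.2 normalised reads (limma log2 fold change 0.23 with an SE of 0.24, adjusted p = 0.678), and -0.19 with library totals. Near miR-125b-2, miR-99a-5p was at 86.8, 88.6 and 84.1 in untreated and 153, 163 and 163 in nicorandil libraries, with no overlap (limma log2 fold change 0.88 with an SE of 0.15, adjusted p = 0.00045). let-7c-5p, which has a further locus at Mirlet7c2, overlapped between the groups at 88.1 ± 13.8 and 98.7 ± 17.6 (SD, n = 3; log2 fold change 0.16, SE 0.18, limma adjusted p = 0.703), and lay at -0.29 with library totals. With library totals as the scale none of the 3 risers passed in limma, at 0.50, 0.42 and 0.61 for miR-99b-5p, miR-99a-5p and miR-100-5p (adjusted p = 0.137, 0.0636 and 0.326), while miR-125a-5p did (0.0191). miR-100-5p also failed with median-of-ratios and upper-quartile scaling in limma (adjusted p = 0.129 and 0.0803), edgeR's filtered quasi-likelihood test (0.0909), DESeq2 (0.297) and limma-voom (0.0687). miR-99b-5p failed with DESeq2 (adjusted p = 0.0915), and miR-99a-5p failed with library totals alone among the settings tried.

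In the X-linked cluster of miR-351, the tested neighbours were the 3p strands of miR-322 and miR-503, whose 5p strands are relatives of the cell-cycle regulators miR-15 and miR-16. miR-322-3p had 4, 2 and 2 untreated and 22, 8 and 4 nicorandil reads (limma log2 fold change -0.31 with an SE of 0.57, adjusted p = 0.86). miR-503-3p had 10 untreated and 52 nicorandil reads, 34 of the latter in replicate 2 (limma log2 fold change -0.31 with an SE of 0.66, adjusted p = 0.86). Without nicorandil replicate 3 its log2 fold change was 0.47 (limma adjusted p = 0.719). Of the usually abundant 5p strands, miR-322-5p had no read and miR-503-5p had 2, both in nicorandil replicate 3.

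**Figure D4:**
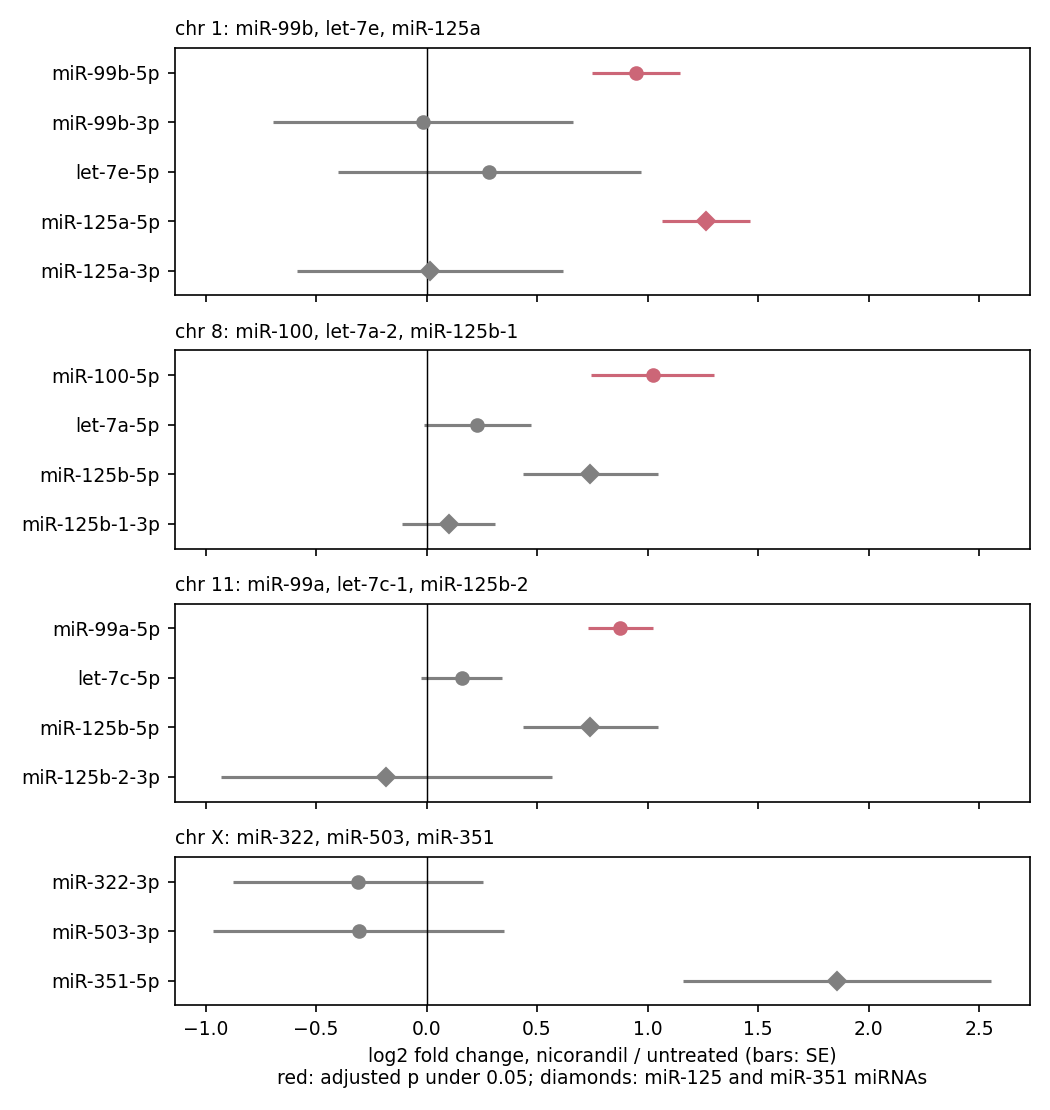
Log2 fold change of nicorandil over untreated with its SE (x axis) for the tested miRNAs with untreated reads of the 4 clusters that encode the family (1 panel each, with miR-125b-5p in both panels of its 2 loci), red where the limma adjusted p was under 0.05 and diamonds for miR-125 and miR-351 strands. miR-125a-5p at 1.27 is red, as are miR-100-5p at 1.02, miR-99b-5p at 0.95 and miR-99a-5p at 0.88, while the let-7 and 3p strands lie between -0.31 and 0.28 and miR-351-5p, at 1.86, is grey with a wide bar.

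The miRNAs whose log2 values followed miR-125a-5p most closely over the 6 libraries were miR-99b-5p (Pearson r = 0.964), miR-148a-3p (0.959) and miR-674-3p (0.958), out of 116 compared. miR-148a-3p, known as a repressor of DNA methyltransferase 1, and miR-674-3p, a rodent miRNA, had log2 fold changes of 1.11 and 0.68. These correlations describe 6 libraries in 2 groups that also differ in depth, so the difference between the groups enters each of them. For miR-125b-5p they were miR-181a-5p (0.971), miR-22-3p (0.90) and miR-27b-3p (0.835), with log2 fold changes of 0.26, 0.070 and 0.074, none past the threshold (limma adjusted p = 0.678, 0.865 and 0.897). The 2 paralogues had an r of 0.591 with each other, and miR-125b-5p had 0.587 with miR-125b-1-3p, the 3p strand of a hairpin that can give it. No miRNA was among the 3 closest of both paralogues.

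In the authors' deposited table the log2 fold changes of the 5p members were 1.30 for miR-125a-5p, 0.85 for miR-125b-5p and 2.07 for miR-351-5p, with unadjusted p-values of 1.84e-07, 0.0473 and 0.0176. For miR-125a-3p and miR-125b-2-3p the authors' deposited table gives 0.30 and -0.49, each with an unadjusted p-value of 1. Of the other arms, miR-125b-1-3p was at 0.12 there (authors' unadjusted p-value 0.721). miR-351-3p had an authors' unadjusted p-value of 0.0357, with no untreated read and 12 of its 14 nicorandil reads in replicate 3. All 3 5p members thus had an unadjusted p under 0.05 in the authors' table. The same held in the fit described here, in the same order (limma unadjusted p = 7.67e-06, 0.0262 and 0.0164). Of them 1 passed after adjustment in that fit.

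**Figure D5:**
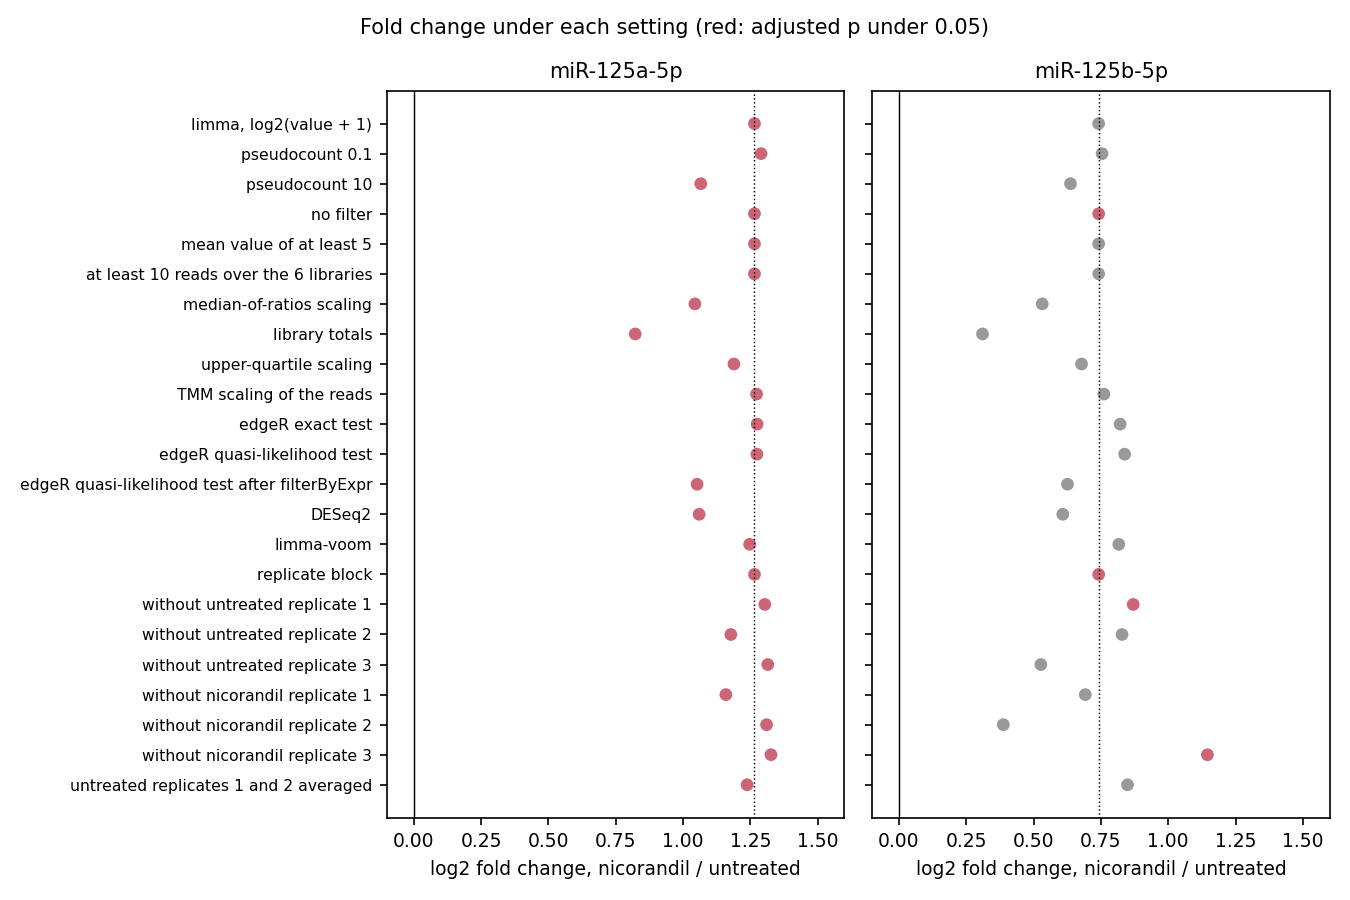
Log2 fold change of nicorandil over untreated (x axis) for miR-125a-5p (left) and miR-125b-5p (right) under the limma fit and each other setting (y axis), red where the adjusted p was under 0.05, with the dotted line at the limma value. All points of miR-125a-5p are red, from 0.82 to 1.33, and those of miR-125b-5p run from 0.31 to 1.15 with 4 red.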

How the data were processed

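Exosomes were isolated with a reagent from culture medium and their small RNA was ligated to adapters, size selected and sequenced single-end, per the labels' protocols. The authors used the tools FastQC, Bowtie and edgeR, per the submitters' processing notes, and neither versions nor the build and annotation are named in the sources used here. The deposited values are a normalised read signal in the form of edgeR pseudo-counts, with a dispersion of 0.0272. Inverting that adjustment gave whole reads, from which all deposited values followed to within 4.8e-07. The deposited table also holds log2 fold changes and p-values, per the file headers.

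limma 3.58.1 with an intensity trend (R 4.3.3) was fitted to log2(value + 1) of the 121 miRNAs with a mean of at least 1, with no covariates. Fold changes are on that scale, which understates changes of low miRNAs. Reads gave shares with Wilson intervals, ratios and two-sided exact permutation tests. Alternatives were pseudocounts of 0.1 and 10, other filters and scalings, edgeR 4.0.16, DESeq2 1.42.0, limma-voom, the replicate block and each library left out. The fit was tested on simulated data.

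The members and lists were chosen with earlier results of these data known, so no p is adjusted over the members. Named were the members, their other arms, tested cluster neighbours and the 3 miRNAs most correlated with miR-125a-5p and with miR-125b-5p. Sequences are from RefSeq (GRCr8).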

Additional observations from a re-analysis of the deposited data

How the results depend on the processing

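Of 478 recomputed values, 400 kept their direction and their side of the threshold, or stayed near the reported value or count, and 43 changed sign, all of them values that were not called. miR-125a-5p kept its call under every setting tried. The number of all miRNAs called higher, 17, fell to 6 with median-of-ratios and with upper-quartile scaling, 4 with library totals (11 lower against 9), 7 with edgeR's quasi-likelihood test after filterByExpr (6 lower), 5 with DESeq2 and 9 with limma-voom. The filterByExpr step left 55 miRNAs to test, against 121 in the main fit, and kept 2 members, miR-125a-5p and miR-125b-5p. With library totals 0 cluster neighbours passed. miR-125b-5p, at 0.74, passed without the filter, so that 2 members were called (limma adjusted p = 0.0143). Over all miRNAs 16 were called higher and 9 lower without the filter. Of the 763 miRNAs listed 513 had no read, and the fold change itself was unchanged. The log2 ratio of the mean shares of miR-125a-5p was 1.08 without the 10 most abundant miRNAs.

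Values that changed sign were, for miR-125a-3p, -0.042 with a pseudocount of 0.1, -0.12 with median-of-ratios scaling, -0.29 with library totals, -0.035 with DESeq2 and -0.057 with voom. For miR-125b-1-3p they were -0.13 with median-of-ratios scaling, the filtered quasi-likelihood test and DESeq2, and -0.35 with library totals. let-7c-5p was at -0.064, -0.29, -0.089 and -0.066 under median-of-ratios scaling, library totals, the filtered test and DESeq2. let-7a-5p was at -0.19, -0.052 and -0.048 under the last 3 of these, and let-7e-5p at -0.035 with DESeq2 and -0.053 with voom. miR-99b-3p was at 0.18, 0.0078 and 0.11 with a pseudocount of 0.1, upper-quartile and TMM scaling, and miR-503-3p at 0.061 and 0.11 with edgeR's exact and unfiltered quasi-likelihood tests. The causes were not tested.

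Leaving out each library in turn gave 6 to 15 miRNAs called higher, 5 to 9 lower and 1 to 2 members. The log2 fold changes ran from -0.28 to 0.51 for miR-125a-3p, 0.39 to 1.15 for miR-125b-5p, -0.60 to 0.29 for miR-125b-2-3p, 1.52 to 2.48 for miR-351-5p (the upper value, and its call as a member without untreated replicate 3, rest on an untreated group at 0 reads), -0.019 to 0.23 for miR-125b-1-3p, -0.68 to 0.40 for miR-99b-3p, -0.25 to 0.69 for let-7e-5p, -0.84 to 0.0098 for miR-322-3p and -1.06 to 0.47 for miR-503-3p. The range of miR-125b-2-3p is over 5 fits, since it was not tested without nicorandil replicate 3. The 5p share counted with miR-125b-2-3p alone differed by -0.93 to 3.35 percentage points. The log2 ratios of mean shares ran from -0.61 to 0.084 for miR-125a-3p, -0.00014 to 0.67 for miR-125b-5p and -2.28 to 0.025 for miR-125b-2-3p.

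Deviations of libraries with the same replicate number showed no correlation (0.0088, 0.044 and -0.030). With untreated libraries this shallow, such values cannot tell whether the numbers pair the libraries, and no label states a pairing. With the replicate block, 2 members were called: miR-125a-5p at 1.27 (limma adjusted p = 0.000174) and miR-125b-5p at 0.74 (0.0136). Over all miRNAs tested 17 were called higher and 9 lower with that block. Averaging untreated replicates 1 and 2, and a minimum of 10 reads over the 6 libraries, were chosen after seeing the data. The depth of the untreated libraries, where 1 read is 0.043% to 0.045% of a library, limits what can be said of miR-351-5p and of the scarce 3p strands.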
